A study of Mus with 8 samples.

Results

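The insulin-like growth factor (IGF) system was followed through 10 genes: the ligands Igf1 and Igf2, the receptors Igf1r and Igf2r, and the binding proteins Igfbp2 to Igfbp7. They were taken by symbol from a table of read counts for 31269 gene symbols, and all 10 were among the 17629 symbols that passed the filter on low counts. RNA sequencing libraries were made from mouse uterus on day 6 of pseudopregnancy, the progesterone-dominated state after a sterile mating. The labels put 4 libraries in a control group and 4 in a group with a deficiency of PGR, the progesterone receptor, in the myometrium. The labels name no allele, Cre driver, strain, age or treatment for either group, and nothing in them ties the libraries to separate animals. The spread behind each p-value is therefore that between these libraries and may be technical. They place the tissue near implantation sites, which a pseudopregnant uterus without embryos would not have.

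IGF1 and IGF2 are small secreted proteins related to insulin. Both signal through the tyrosine kinase receptor IGF1R, whereas IGF2R, which also carries lysosomal enzymes, takes up IGF2 for breakdown. The binding proteins hold the ligands in body fluids and matrix and either block or prolong their action until proteases cut them. In the rodent uterus, IGF1 is known as an estrogen-induced growth factor of stroma and muscle that acts on the epithelium.

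Total counts ran from 70296369 to 72364750 per library. Levels are given as CPM (read counts of a gene scaled to the library's total, with trimmed mean of M-values, TMM, factors). They include no correction for transcript length, so they are compared between libraries and not between genes. Pgr, over its whole length and all cell types, measured 131 to 180 CPM in the controls and 160 to 187 CPM in the libraries labelled deficient (log2 difference 0.18 ± 0.11 SE, adjusted p = 0.338 in edgeR). Pgr counts over the whole tissue do not check the label, and the group is called "labelled deficient"; each direction rests on the label. Markers of smooth muscle, stroma, epithelium and vessels were all detected. Libraries 2 and 3 labelled deficient stood apart from the rest in their epithelial markers, with summed levels of 4402 and 3273 CPM against 1636 to 1922 CPM in the other 6 libraries, so results are also given without both.

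Of the 10 genes, Igfbp3 and Igf1r had lower levels and Igfbp2 a higher level in the libraries labelled deficient, while Igf1, Igf2r, Igfbp6 and Igfbp7 had nearly equal group means. Igfbp3 was 3.43-fold lower, Igf1r 1.77-fold lower and Igfbp2 5.91-fold higher. None of the 10 passed edgeR's quasi-likelihood test at an adjusted p of 0.05, and neither did any other gene (0% of 17629, smallest adjusted p 0.0715). At an unadjusted p under 0.05 in edgeR stood these 3 of the 10, where 24.8% of all genes did. DESeq2 called the same 3, where it called 14.3% of all genes: 1 of the 10 was higher (7.5% of all genes were) and 2 were lower (6.81%). Limma-voom called 0 of the 10, where it called 2 genes (0.0113%), 1 in each direction (0.00567% each). The groups did not overlap for 1 of the 10, which was lower (8.66% of all genes), and for 0 in the other direction (7.61%). Differences among the 10 were 6 positive and 4 negative with a median of 0.02 on the log2 scale, against a median of 0.01 over all genes. At the unadjusted p in edgeR the count was near the background of all genes. In DESeq2 it lay above the background, but on only 3 genes. With 3 or fewer of 10 meeting each criterion, the results below concern single genes.

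**Figure D1:**
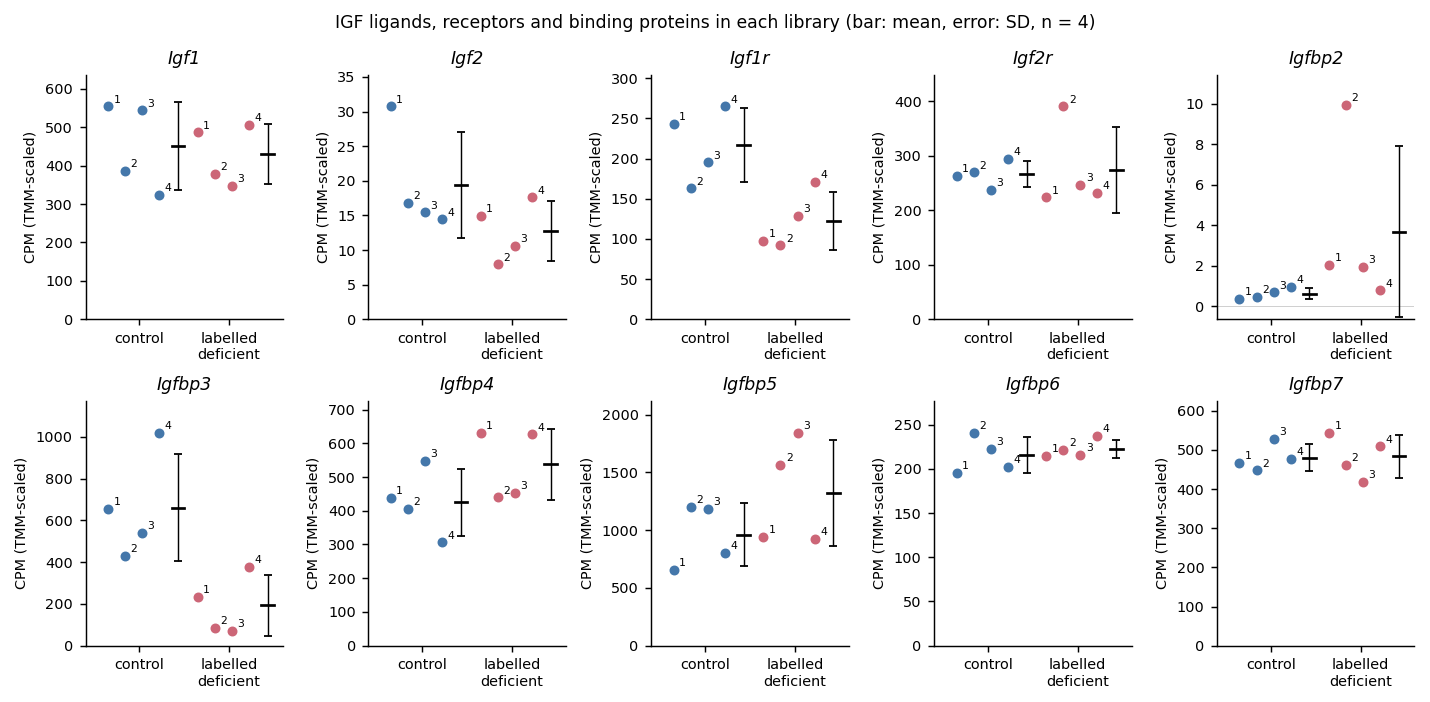
Level of each of the 10 IGF genes in CPM (vertical axes, TMM-scaled) in the 4 control libraries and the 4 libraries labelled deficient, with library numbers beside the points, and the mean and SD as a bar with an error line at the right of each group (for Igfbp2 labelled deficient the SD exceeds the mean and the line passes below 0). Igfbp3 is the panel in which the groups do not overlap, and library 2 labelled deficient stands alone at 9.95 CPM for Igfbp2 and at 390.8 CPM for Igf2r.

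Among the ligands, Igf1 did not separate the groups. Igf1 (chromosome 10, 87858265 to 87937047 in RefSeq GRCm38.p6, the assembly that mm10 names) measured 553.6, 386.7, 543.5 and 323.9 CPM in controls 1 to 4. In libraries 1 to 4 labelled deficient it measured 486.7, 378.6, 347.1 and 505.2 CPM. The highest and the lowest values were both controls, and the group labelled deficient lay wholly inside the control range. The fold of labelled deficient over control was 0.950, with a 95% interval from 0.690 to 1.31 (edgeR adjusted p = 0.840).

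Igf2, an imprinted growth factor expressed from the paternal copy in most mouse tissues, had a lower mean in the libraries labelled deficient and overlapping groups. Igf2 lies on chromosome 7 from 142650768 to 142666816. It measured 30.7, 16.9, 15.5 and 14.4 CPM in controls 1 to 4, and 15.0, 7.97, 10.6 and 17.6 CPM in deficient-labelled libraries 1 to 4. Control library 1 was well above the other controls, and libraries 2 and 3 labelled deficient were the lowest of the 8. The log2 difference was -0.60 ± 0.32 (SE, edgeR adjusted p = 0.274), which became -0.29 without control library 1 and -0.25 without libraries 2 and 3 labelled deficient. Igf2os, an overlapping antisense transcript, had 3 to 23 counts against 537 to 2231 counts for Igf2. The use of strand in counting is not given in the sources used here, so reads of such partners cannot be told apart.

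Of the receptors, Igf1r, through which both ligands signal, was lower in the libraries labelled deficient. Igf1r (chromosome 7, 67952257 to 68233668) measured 242.9, 162.8, 195.5 and 264.7 CPM in controls 1 to 4. It measured 97.6, 92.2, 128.7 and 170.7 CPM in deficient-labelled libraries 1 to 4. Libraries 1 to 3 of that group lay below every control, and library 4 lay just above control library 2. The group means were 216.5 ± 46.0 and 122.3 ± 36.03 CPM (SD, n = 4), and the log2 difference was -0.82 ± 0.23 (SE). The 95% interval of the fold of labelled deficient over control ran from 0.394 to 0.810. The unadjusted p was 0.00630 and the adjusted p 0.104 in edgeR, and the adjusted p in DESeq2 was 0.00976. By exact permutation of the libraries, two-sided, p was 0.0571 (0.0286 is the lowest that 4 against 4 can reach). The DESeq2 call was lost without control library 1 (adjusted p = 0.0577), without control library 4 (0.0762), and without libraries 2 and 3 labelled deficient (0.0871), where the edgeR log2 difference was -0.69 ± 0.27.

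Because each library gives both genes, the ratio of Igf1 to Igf1r counts is free of library scaling. It was 2.28, 2.38, 2.78 and 1.22 in controls 1 to 4, and 4.99, 4.11, 2.70 and 2.96 in deficient-labelled libraries 1 to 4. The mean was 2.17 ± 0.664 against 3.69 ± 1.06 (SD, n = 4), and the groups overlapped, since library 3 labelled deficient lay below control library 3. The ratio depends on the transcripts' lengths in its size, though not in its differences between libraries, and was chosen after the values were seen.

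Igf2r, the uptake receptor for IGF2 and for proteins that carry mannose 6-phosphate, had nearly equal group means with 1 library far above the rest. Igf2r (chromosome 17, 12682406 to 12769706) measured 263.9, 269.8, 237.4 and 295.2 CPM in controls 1 to 4. It measured 224.3, 390.8, 246.7 and 232.3 CPM in deficient-labelled libraries 1 to 4. Library 2 labelled deficient was 1.55-fold above the mean of the other 7 libraries, and the other 3 of its group lay from just below to within the control range. The log2 difference was 0.04 ± 0.18 (SE, edgeR adjusted p = 0.912). Without library 2 labelled deficient it turned to -0.18 (adjusted p = 0.276), without libraries 2 and 3 to -0.22 (0.277), without control library 3 to -0.02 (0.959), and with library totals as the scaling to -0.01 (0.962).

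In mouse, Igf2r is expressed from the maternal copy in most tissues, and Airn, a long noncoding RNA that starts inside Igf2r and is transcribed from the paternal copy, is known to silence it there. Airn (chromosome 17, 12741311 to 12859884), looked at after the values were seen, had 1182, 1000, 1150 and 1194 counts in controls 1 to 4. It had 891, 15, 872 and 869 counts in deficient-labelled libraries 1 to 4. The library with the highest Igf2r level was thus the library with almost no Airn reads, at 0.223 CPM against 11.9 to 16.8 CPM in the other 7. Of 12931 genes with at least 3 CPM in each of the other 7 libraries, Airn was the gene with the lowest level in this library relative to the lowest of the others, at 1.87%, and the next gene stood at 3.73%. In libraries 1, 3 and 4 labelled deficient Airn was at 11.9 to 12.4 CPM, below the controls at 14.1 to 16.8 CPM. Peg10, another imprinted gene that is expressed from the paternal copy, was 53.3 CPM in the same library, 8.18-fold above the mean of the other 7, which lay between 5.48 and 8.24 CPM. Its imprinted neighbour Sgce was at 75.7 CPM there and at 58.3 to 71.2 CPM in the other 7. The imprinted genes Meg3 and Grb10 were at 182.3 and 210.7 CPM in this library, within the ranges of the other 7 for Meg3 (163.7 to 200.9 CPM) and for Grb10 (206.8 to 265.1 CPM). Plagl1, also imprinted, was at 82.6 CPM in this library and at 61.9 to 102.5 CPM in the other 7. Slc22a3, which lies in the same imprinted cluster as Igf2r and Airn, was lowest in this library, at 2.39 CPM against 5.05 to 22.5 CPM in the other 7. It measured 22.5, 17.4, 17.7 and 20.8 CPM in controls 1 to 4 and 13.9, 2.39, 5.05 and 13.6 CPM in deficient-labelled libraries 1 to 4, without overlap (log2 difference -1.16 ± 0.50 SE, adjusted p = 0.197 in edgeR). The genotype of single animals and the parental origin of reads are not analysed here.

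**Figure D2:**
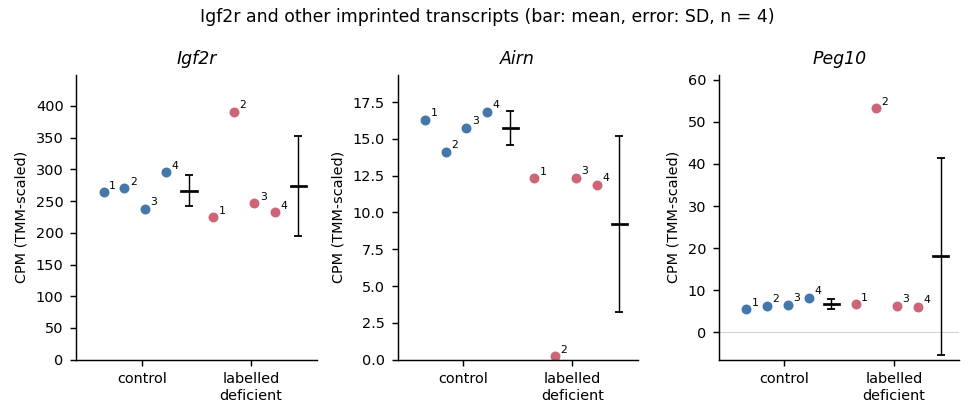
Levels of Igf2r, Airn and Peg10 in CPM (vertical axes, TMM-scaled) in the 4 control libraries and the 4 libraries labelled deficient, with library numbers beside the points, and the mean and SD at the right of each group (for Peg10 labelled deficient the SD exceeds the mean). Library 2 labelled deficient is the highest for Igf2r and Peg10 and close to 0 for Airn.

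Igfbp3, the main carrier of IGFs in blood and a binding protein made by many tissues, was the gene of the 10 whose groups did not overlap. Igfbp3 lies on chromosome 11 from 7206086 to 7215498. It measured 656.4, 430.7, 538.9 and 1019 CPM in controls 1 to 4, and 234.9, 85.4, 71.7 and 378.2 CPM in deficient-labelled libraries 1 to 4. Every library labelled deficient lay below every control, by the least margin in library 4, and libraries 2 and 3 had the lowest levels. Groups failed to overlap in this direction in 8.66% of all genes and in either direction in 16.3%. The means were 661.2 ± 255.6 and 192.6 ± 144.2 CPM (SD, n = 4). The log2 difference was -1.78 ± 0.55 (SE), and the 95% interval of the fold of labelled deficient over control ran from 0.121 to 0.701. The unadjusted p was 0.0117 and the adjusted p 0.119 in edgeR, and the adjusted p in DESeq2 was 0.00833. By exact permutation, two-sided, p was 0.0286, the lowest that 4 against 4 can reach and not adjusted over genes.

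Without libraries 2 and 3 labelled deficient, Igfbp3 was 2.15-fold lower (log2 difference -1.11 ± 0.37 SE; adjusted p = 0.204 in edgeR and 0.0178 in DESeq2). The DESeq2 call was lost without control library 4 (adjusted p = 0.0771), library 1 labelled deficient (0.0713) or library 2 labelled deficient (0.0713). In bulk tissue, fewer cells of a type and less RNA per cell cannot be told apart. Endothelial markers, 12 of 12 tested and 10 of them with negative differences, summed to 1321 to 1633 CPM in the controls and to 893 to 1720 CPM in the libraries labelled deficient, with libraries 2 and 3 the lowest at 893 and 1024 CPM. Pericyte markers (6 of 7 negative) summed to 709 to 800.7 CPM in the controls and to 754.4, 425.2, 540.7 and 694.2 CPM in deficient-labelled libraries 1 to 4. Stromal fibroblast markers (10 of 17 negative) summed to 9324 to 11570 CPM in the controls and to 11630 to 13340 CPM in the libraries labelled deficient. Of this sum, Col1a1 alone made up 1047 to 1917 CPM in the controls and 1879 to 3124 CPM in the libraries labelled deficient, with overlap. No marker of these 3 lists was at 0 in all libraries, and the part of these cell types in the Igfbp3 result was not tested.

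Among the partners of the IGF complexes, Igfbp1, which is known from decidua and liver and is not one of the 10, is the neighbour of Igfbp3 on chromosome 11, with 3.54 kb and no annotated RefSeq gene between them. It was scarce, at 5, 69, 46 and 293 counts in controls 1 to 4 and 16, 0, 1 and 5 counts in deficient-labelled libraries 1 to 4. Its log2 difference was -4.21 ± 1.32 (SE, edgeR adjusted p = 0.122), and the groups overlapped, because library 1 labelled deficient exceeded control library 1. The genes Igfbp2 and Igfbp5 form another neighbouring pair, on chromosome 1, with 5.59 kb and no annotated RefSeq gene between them. Within each pair the 2 differences had the same sign, negative for Igfbp1 and Igfbp3 and positive for Igfbp2 and Igfbp5, although Igfbp5 turned to -0.04 without libraries 2 and 3 labelled deficient.

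Igfbp2, a binding protein found in many fetal tissues and in epithelia, was scarce in the controls and higher in 3 of the 4 libraries labelled deficient. Igfbp2 (chromosome 1, 72824480 to 72852474) had 27, 33, 50 and 68 counts in controls 1 to 4, which is 0.372, 0.466, 0.684 and 0.959 CPM. It had 147, 671, 137 and 57 counts in deficient-labelled libraries 1 to 4, which is 2.03, 9.95, 1.94 and 0.780 CPM. Libraries 1 to 3 labelled deficient lay above every control, whereas library 4 lay between controls 3 and 4. Library 2 alone held most of the reads of its group and stood 9.63-fold above the mean of the other 7 libraries. The log2 difference was 2.56 ± 0.78 (SE), with a 95% interval of the fold from 1.72 to 20.3. The unadjusted p was 0.0104 and the adjusted p 0.116 in edgeR, and the adjusted p in DESeq2 was 0.00741. By exact permutation, two-sided, p was 0.0571. Without library 2 labelled deficient the log2 difference was 1.36 and the DESeq2 call was lost (adjusted p = 0.0657), and without libraries 2 and 3 it was 1.18 ± 0.50 (DESeq2 adjusted p = 0.227). Epithelial markers, 13 of 16 with positive differences and none at 0, summed to 1636 to 1922 CPM in the controls and to 1831, 4402, 3273 and 1814 CPM in deficient-labelled libraries 1 to 4. Their part in the Igfbp2 result was not tested.

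Igfbp5, a binding protein that attaches to extracellular matrix, was highest in the 2 libraries in which Igfbp3 was lowest. Igfbp5 (chromosome 1, 72858065 to 72874865) measured 656.1, 1204, 1184 and 806.2 CPM in controls 1 to 4. It measured 942.5, 1568, 1844 and 928.2 CPM in deficient-labelled libraries 1 to 4. Libraries 2 and 3 labelled deficient exceeded every control and the other 2 lay within the control range. The log2 difference was 0.46 ± 0.29 (SE, edgeR adjusted p = 0.345), and the 95% interval of the fold was 0.870 to 2.16. Without libraries 2 and 3 labelled deficient the log2 difference was -0.04 ± 0.25.

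Igfbp4, an inhibitor of IGF action until it is cut by the protease PAPP-A, differed in the opposite libraries from Igfbp5. Igfbp4 (chromosome 11, 99040005 to 99052655) measured 438.8, 405.0, 548.8 and 306.9 CPM in controls 1 to 4. It measured 631.2, 440.0, 453.2 and 627.2 CPM in deficient-labelled libraries 1 to 4. Libraries 1 and 4 labelled deficient exceeded every control, while libraries 2 and 3 lay within the control range. The log2 difference was 0.34 ± 0.20 (SE, edgeR adjusted p = 0.308) with all libraries, and 0.57 ± 0.20 without libraries 2 and 3 labelled deficient (unadjusted p = 0.0257, adjusted p = 0.217).

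Igfbp6 and Igfbp7 were the steadiest of the 10 genes. Igfbp6, which prefers IGF2 as its ligand, lies on chromosome 15 from 102144186 to 102149512 and ranged from 195.8 to 240.9 CPM over the controls and from 214.7 to 237.3 CPM over the libraries labelled deficient. The fold was 1.03 with a 95% interval from 0.910 to 1.17 (edgeR adjusted p = 0.744). Igfbp7, a protein of vessel walls and matrix that binds IGFs weakly, lies on chromosome 5 from 77349240 to 77408045. It ranged from 447.4 to 528.5 CPM over the controls and from 418.4 to 543.7 CPM over the libraries labelled deficient, with a fold of 1.007 and a 95% interval from 0.864 to 1.17 (edgeR adjusted p = 0.961). Over all 8 libraries the SD of the log2 level was 0.10 for Igfbp6 and 0.13 for Igfbp7, against 1.51 for Igfbp2, 1.37 for Igfbp3, 0.57 for Igf2, 0.56 for Igf1r and 0.49 for Igfbp5. 

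**Figure D3:**
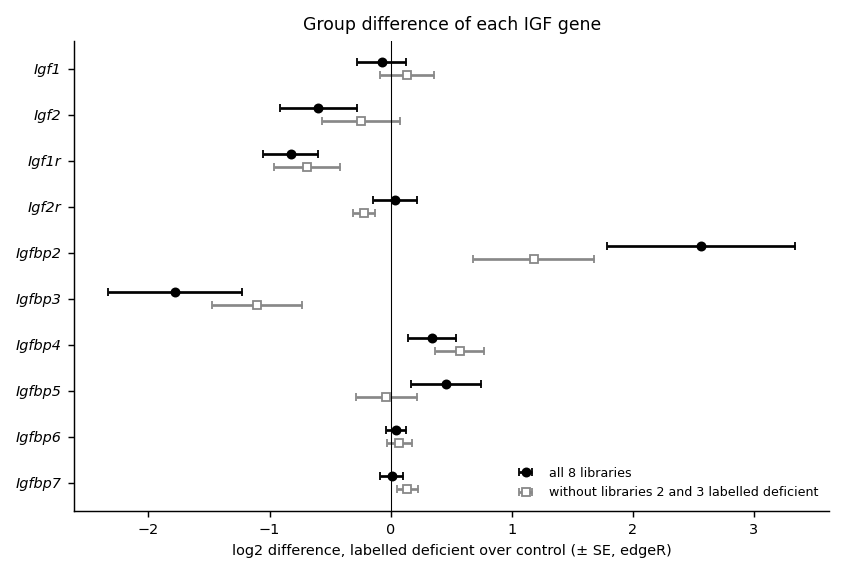
Log2 difference of labelled deficient over control (horizontal axis, with SE from edgeR) for each of the 10 IGF genes with all 8 libraries (filled circles) and without libraries 2 and 3 labelled deficient (open squares). Igfbp3 moves from -1.78 to -1.11, Igfbp2 from 2.56 to 1.18 and Igfbp5 from 0.46 to -0.04, while Igf1r stays between -0.82 and -0.69.

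The summed level of the 6 binding proteins was alike in both groups although its make-up differed. It was 2415 to 3024 CPM in the controls and 2569 to 3006 CPM in the libraries labelled deficient, with means of 2745 ± 252.9 and 2760 ± 185.9 CPM (SD, n = 4). Igfbp3 supplied 27.2, 15.8, 17.8 and 36.2% of these counts in controls 1 to 4, and 9.15, 3.07, 2.39 and 14.1% in deficient-labelled libraries 1 to 4, so that the groups did not overlap. Igfbp5 supplied 34.8 ± 8.20% in the controls and 47.2 ± 13.6% in the libraries labelled deficient (SD, n = 4), with overlap. In libraries 2 and 3 labelled deficient Igfbp5 made up 56.3 and 61.4%, above every other library, and in libraries 1 and 4 Igfbp4 made up 24.6 and 23.4%, likewise above every other library. The ratio of Igfbp5 to Igfbp3 counts was 0.791 to 2.80 in the controls and 4.01, 18.4, 25.7 and 2.45 in deficient-labelled libraries 1 to 4. The ratio of Igf1 to Igfbp3 counts was 0.318 to 1.009 in the controls and 1.34 to 4.84 in the libraries labelled deficient, without overlap. These shares and ratios were chosen after the values were seen, weight longer transcripts more, and carry no test.

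**Figure D4:**
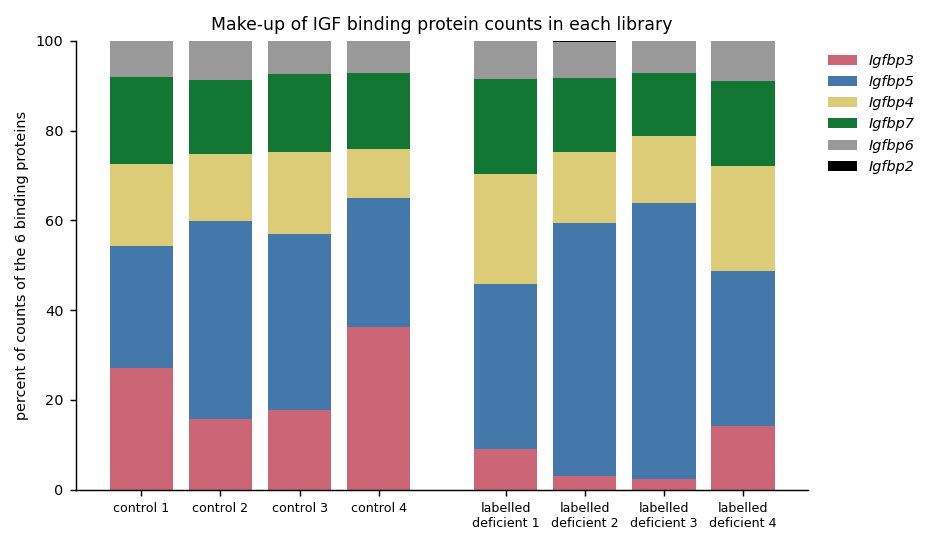
Percent of the summed counts of the 6 binding proteins that each supplied (vertical axis) in the 4 control libraries and the 4 libraries labelled deficient, as stacked bars. Igfbp3 supplied 15.8 to 36.2% in the controls and 2.39 to 14.1% in the libraries labelled deficient, where Igfbp5 filled most of the bar in libraries 2 and 3.

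The genes most like the 3 most variable members were found by the smallest root mean square difference of centred log2 levels over the 8 libraries, among 15243 candidates with a mean of at least 1 CPM. For Igfbp3 they were Efhd1, a mitochondrial calcium-binding protein (difference 0.20), Ttbk1, a kinase of tau (0.29), and Tac2, which encodes neurokinin B (0.30). Efhd1 measured 115.5, 71.4, 75.9 and 181.6 CPM in controls 1 to 4 and 31.0, 10.1, 12.1 and 58.4 CPM in deficient-labelled libraries 1 to 4, the same order as for Igfbp3 within each group apart from an exchange of deficient-labelled libraries 2 and 3. For Igfbp2, Slc5a9, a sugar transporter (0.46), and Aldoc, an aldolase (0.55), were among them, both highest in library 2 labelled deficient. For Igf2 they were Igsf11 (0.17), Cyp46a1 (0.18) and the noncoding RNA Fendrr (0.18). This likeness is a description over 8 libraries, which share the 2 groups and the libraries that stand apart.

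Among 22 partners, proteases and protease inhibitors of the IGF complexes, 21 were tested, 0 passed the adjusted threshold in edgeR and 6 had an unadjusted p under 0.05, with 3 in each direction, where 13% of all genes did so upward and 11.8% downward. Adam12, a metalloprotease that can cut IGFBP3 and IGFBP5, was at 43.8, 78.9, 69.9 and 25.3 CPM in controls 1 to 4 and 132.1, 175.6, 114.0 and 101.1 CPM in deficient-labelled libraries 1 to 4. Its groups did not overlap, and the log2 difference was 1.26 ± 0.34 (SE, adjusted p = 0.104 in edgeR and 0.00522 in DESeq2). Htra1, a secreted serine protease with an IGF binding protein domain, was at 0.97 ± 0.33 (edgeR adjusted p = 0.138), also without overlap, and reached 517.8 CPM in library 2 labelled deficient. Its relative Htra3 was at -0.42 ± 0.16. Timp1, an inhibitor of metalloproteases, was at 0.89 ± 0.29 (edgeR adjusted p = 0.124). Of the pappalysins, which are proteases of IGF binding proteins, Pappa was at -0.68 ± 0.37 and Pappa2 at -0.02 ± 0.41. Of the stanniocalcins that inhibit them, Stc1 was at -0.26 ± 0.49 and Stc2 at 0.76 ± 0.36. None of the pappalysins and stanniocalcins passed the threshold. The acid-labile subunit gene Igfals, whose product joins IGFBP3 in serum, had 24 to 65 counts per library.

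Of 47 tested genes of insulin and IGF receptor signalling, 24 had positive and 23 negative differences, 0 passed the adjusted threshold in edgeR, 18 (38.3%) had an unadjusted p under 0.05, where 24.8% of all genes did, and the median was 0.01. These 18 were 9 in each direction, beside 13% of all genes higher and 11.8% lower. DESeq2 called 6 higher and 5 lower, where it called 7.5% of all genes higher and 6.81% lower. Irs2, a docking protein of both receptors, measured 38.6, 29.0, 33.0 and 48.6 CPM in controls 1 to 4 and 14.4, 10.6, 14.1 and 15.8 CPM in deficient-labelled libraries 1 to 4. Those groups did not overlap, and the log2 difference was -1.45 ± 0.19 (SE, adjusted p = 0.0755 in edgeR and 1.02e-09 in DESeq2). Socs1, a suppressor of cytokine signalling that also restrains insulin signalling, was at 0.63 ± 0.11, and Ptpn1, a phosphatase of the insulin receptor, at 0.49 ± 0.10, both without overlap (edgeR adjusted p = 0.0906 for each).

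Growth hormone signalling, which drives Igf1 in liver, is represented by 9 tested genes of 13, of which 6 were positive, 0 passed the adjusted threshold in edgeR and 3 had an unadjusted p under 0.05, all higher, where 13% of all genes were higher at that p. Stat5a was at 0.88 ± 0.23, without overlap, Jak2 at 0.24 ± 0.10, and the growth hormone receptor Ghr at -0.13 ± 0.08. Ghrh, the growth hormone-releasing hormone, had 1, 4, 1 and 1 counts in controls 1 to 4 and 13, 199, 40 and 12 counts in deficient-labelled libraries 1 to 4, without overlap (edgeR adjusted p = 0.0909). Of the list, Sst was at 0 in every library.

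Of 17 tested imprinted growth genes and Igf2 messenger RNA binding proteins, 7 were positive and 10 negative, 0 passed the adjusted threshold in edgeR and 3 (17.6%) had an unadjusted p under 0.05, below the 24.8% of all genes. These were Ctcf, which binds the imprinting control region shared by Igf2 and H19 (0.20 ± 0.06), Peg3 (-0.69 ± 0.20) and Gatm (-0.43 ± 0.18). H19, the noncoding neighbour of Igf2, had at most 1 count in a library. Of 10 tested genes of the CCN family and other proteins with an IGF binding protein domain, 3 had an unadjusted p under 0.05 in edgeR, where 24.8% of all genes did. They were Htra1 and Htra3, given above, and Nov (CCN3), a matricellular protein, at a mean of 48.9 ± 8.48 CPM over controls and 24.4 ± 7.71 CPM over deficient-labelled libraries (SD, n = 4). Its log2 difference was -1.004 ± 0.23 (adjusted p = 0.0906 in edgeR and 0.00177 in DESeq2). The table lists this family under the older symbols Cyr61, Ctgf, Nov and Wisp1 to Wisp3. Relaxin and insulin family genes had 5 of 6 positive differences and 0 at an unadjusted p under 0.05 in edgeR.

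Proliferation genes, for which IGF signalling is a known stimulus, had 15 of 20 positive differences with a median of 0.35, but 1 of 20 stood at an unadjusted p under 0.05 in edgeR, where 24.8% of all genes did. That gene was Mcm7, a replication helicase subunit, at -0.37 ± 0.11. Top2a, a topoisomerase of dividing cells, measured 14.9 to 36.5 CPM in the controls and 106.3, 90.7, 28.0 and 22.3 CPM in deficient-labelled libraries 1 to 4 (1.17 ± 0.54, edgeR adjusted p = 0.224). Its high libraries were 1 and 2. Within that group, Igf1r was lowest in libraries 1 and 2 (97.6 and 92.2 CPM), and Igfbp2 was highest there (2.03 and 9.95 CPM). The lowest Igfbp3 and highest Igfbp5 levels were in libraries 2 and 3. Top2a is 1 of the 20 genes, and a relation of proliferation genes to the IGF genes was not tested.

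**Figure D5:**
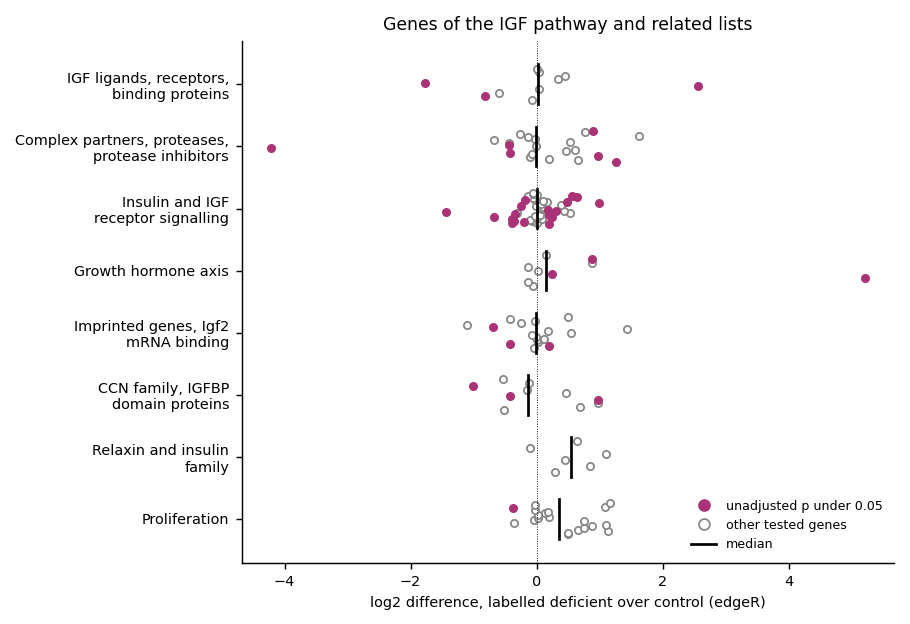
Log2 difference of labelled deficient over control (horizontal axis, edgeR) for each tested gene of the 8 lists, with filled points for an unadjusted p under 0.05, open points for the others and a vertical bar for the median. Igfbp1 at -4.21 and Ghrh at 5.21 are the extremes, and signalling genes lie on both sides of a median of 0.01.

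Of the other cell types, smooth muscle markers had 13 of 13 negative differences with a median of -0.24 and summed to 5629 to 8114 CPM in the controls and 5559 to 6382 CPM in the libraries labelled deficient. Macrophage markers had 13 of 14 positive differences (sums of 837.7 to 1052 against 1159 to 1808 CPM) and lymphocyte markers 14 of 15 (151.8 to 260.7 against 258.2 to 461.0 CPM). Mesothelial markers had 6 of 6 negative differences (297.5 to 380.7 against 196.4 to 250.8 CPM) and lymphatic markers 6 of 6 (194.8 to 334.7 against 150.0 to 206.0 CPM). Of the mesothelial sum, Wt1 alone made up 254.4 to 271.2 CPM in the controls and 102.9 to 190.9 CPM in the libraries labelled deficient. Mast cell markers had 4 of 5 negative differences (35.1 to 66.2 against 33.1 to 122.7 CPM). The 4 were Cpa3 (log2 difference -2.05), Cma1 (-2.15), Tpsb2 (-2.22) and Mcpt4 (-2.53), each lower without overlap, as were 8.66% of all genes. Kit, the fifth, was at 0.64. Of the mast cell sum, Cpa3 made up 3.63 to 11.6 CPM in the controls and 0.608 to 1.99 CPM in the libraries labelled deficient. Tpsb2 made up 2.81 to 9.43 CPM and 0.356 to 1.49 CPM, so the sum does not follow these genes. Gland markers had 5 of 10 negative differences (363.7 to 1305 against 226.1 to 1323 CPM), decidual markers 4 of 7 (942.6 to 1013 against 828.4 to 1225 CPM) and ovary, oviduct and liver markers 2 of 4 (52.0 to 92.1 against 51.6 to 293.0 CPM). Of these lists, the decidual gene Prl3c1 was at 0 in every library. The part of these cell types in the levels of the 10 IGF genes was not tested.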

How the data were processed

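The authors deposited 1 table of whole-number read counts per gene symbol in 8 libraries, with no normalization; HISAT2 2.2.1, HTSeq 0.10.0 and the build mm10 are named per the submitters' processing notes, and no source used here gives the annotation, strand setting or filters. RNA was extracted with TRIzol per the labels' protocols. Columns were matched to samples by the code in the sample titles.

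Counts were filtered with filterByExpr, scaled with TMM and tested over all 17629 remaining genes with edgeR 4.0.16 (glmQLFit and glmQLFTest, group as the only term, R 4.3.3), with Benjamini-Hochberg adjustment and a threshold of 0.05. Log2 differences are labelled deficient over control, and the SE was taken from the difference and its F value. Log2 CPM used a prior count of 0.5, and group means of log2 CPM were compared with a two-sided exact permutation test over 70 placements. Alternatives were DESeq2 1.42.0, limma-voom (limma 3.58.1), other scalings and filters, robust and non-legacy fits, a replicate block and leaving out libraries.

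The 10 members, 7 other gene lists and 13 marker lists were chosen with earlier results of these data known. Other genes were named by a rule: up to 3 per gene list and up to 2 per marker list with the smallest p, the 3 genes most alike to each of the 3 most variable members, and Pgr; 1 gene that it names is not reported here, and genes outside it, among them Airn, Sgce, Slc22a3, Plagl1, Meg3, Ghr, Pappa and the stanniocalcins, were named after their values were seen. Of 291 listed symbols 290 were found in the table, some under older symbols. Coordinates come from RefSeq GRCm38.p6, in which all 10 members matched. No pair of libraries agreed within sampling noise (chi-square per degree of freedom of at least 46.5).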

Additional observations from a re-analysis of the deposited data

Results flagged for a closer look

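Within each group of 4 libraries, the highest or lowest library was looked for whose gap to the next exceeded Dixon's 95% critical value, a share of the group's range. Of 206 groups, 16 (7.77%) held such a library. The 206 include genes named after their values were seen, Airn and Peg10 among them. They also include shares and sums that contain genes tested singly, such as Igfbp2 and Lyve1. The groups are therefore neither independent nor chosen blind, and the share cannot be set against the 5% that chance would give. Library 2 labelled deficient accounted for Igf2r (390.8 CPM against 224.3 to 246.7 CPM in the rest of its group), Igfbp2 (9.95 CPM against 0.780 to 2.03 CPM, and 0.357% of the binding protein counts against 0.0291 to 0.0791%), Airn (0.223 CPM against 11.9 to 12.4 CPM) and Peg10 (53.3 CPM against 6.03 to 6.69 CPM). It was also the library apart for Htra1 (517.8 CPM against 190.4 to 227.2 CPM) and Ghrh (2.95 CPM against 0.164 to 0.568 CPM). Control library 1 stood apart for Igf2 (30.7 CPM against 14.4 to 16.9 CPM in the other controls), Lyve1 (81.7 CPM against 40.5 to 44.9 CPM), Slc5a9 (5.17 CPM against 11.1 to 11.5 CPM) and the summed lymphatic markers (334.7 CPM against 194.8 to 217.6 CPM). Control library 2 stood apart for Alpl (63.2 CPM against 9.95 to 15.9 CPM) and Ghrh (0.0564 CPM, 4 counts), control library 3 for the summed mast cell markers (35.1 CPM against 62.1 to 66.2 CPM) and the summed IGF complex partners and proteases (2773 CPM against 2859 to 2862 CPM), and control library 4 for Hand2 (229.1 CPM against 160.9 to 172.1 CPM). The cause of these was not tested.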

How the results depend on the processing

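No gene passed the adjusted threshold in edgeR (4372 at an unadjusted p under 0.05), whereas DESeq2 called 2522, limma-voom 2, the non-legacy quasi-likelihood fit 3 and the fit with a replicate block 23. The replicate numbers did not pair the samples: same-numbered deviations correlated at 0.199, 0.221, -0.0139 and -0.073, and 1 of 4 controls correlated best with its own number. With the block, log2 differences were -0.84 for Igf1r (adjusted p = 0.0675 in edgeR), -2.04 for Igfbp3 (0.0620) and 2.00 for Igfbp2 (0.216). In DESeq2 the differences were -0.82 for Igf1r, 2.57 for Igfbp2 and -1.78 for Igfbp3, all past its threshold.

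Some signs turned. With library totals as the scaling, Igf2r was -0.015 and Igfbp7 -0.029 in edgeR, and the differences of mean log2 CPM were -0.039 for Igf2r and -0.036 for Igfbp7. With the upper quartile Igfbp7 was -0.0093. Without libraries 2 and 3 labelled deficient, edgeR gave 0.14 for Igf1, -0.22 for Igf2r and -0.037 for Igfbp5, and among marker genes 0.044 for Emcn and -1.02 for Foxj1. The log2 difference of Foxj1 ran from -0.35 (without library 2 labelled deficient) to 1.196 over the fits that left out 1 library. In DESeq2, an alternative chosen after seeing the data, that left 1461 genes called, with 0.14 for Igf1, -0.69 for Igf1r, -0.22 for Igf2r, 1.18 for Igfbp2 and -0.039 for Igfbp5. A filter of 1 CPM in at least 4 libraries removed Igfbp2. The cause of these changes was not tested.

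Leaving out 1 library at a time gave 0 to 2 genes called in edgeR, and 2896 (without control 4) to 5471 (without library 4 labelled deficient) at an unadjusted p under 0.05. The edgeR log2 difference ran from -0.21 to 0.031 for Igf1, -0.79 to -0.29 for Igf2, -1.03 to -0.71 for Igf1r, -0.18 to 0.12 for Igf2r, 1.36 to 2.90 for Igfbp2, -2.34 to -1.50 for Igfbp3, 0.20 to 0.48 for Igfbp4, 0.25 to 0.59 for Igfbp5, -0.0065 to 0.10 for Igfbp6 and -0.052 to 0.068 for Igfbp7. The difference of mean log2 CPM ran from -0.21 to 0.046 for Igf1, -1.02 to -0.72 for Igf1r, -0.18 to 0.085 for Igf2r, 1.32 to 2.54 for Igfbp2, -2.475 to -1.68 for Igfbp3, -0.0038 to 0.10 for Igfbp6 and -0.054 to 0.066 for Igfbp7; the exact permutation p for Igfbp3 was 0.0286 to 0.0571. DESeq2 called 927 (without control 4) to 3961 (without library 4 labelled deficient) genes, 1328 without control 1 and 1531 without library 2 labelled deficient. Its differences ran from -0.20 to 0.041 for Igf1, -1.03 to -0.71 for Igf1r, -0.18 to 0.12 for Igf2r, 1.36 to 2.91 for Igfbp2, -2.335 to -1.49 for Igfbp3 and -0.048 to 0.077 for Igfbp7. Depth limits Igfbp1, Igfbp2 and Ghrh, which had under 100 counts in most libraries.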
